A study of Mus musculus with 13 samples.

Results

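Levels of 43 cell cycle genes were followed through bulk RNA-seq libraries of 2 kinds of mouse stem cell. The genes were chosen by name: each is a row of the deposited count table whose Ensembl identifier carries 1 of the 43 symbols in the mouse GRCm38 annotation, and all 43 were found among 38377 identifiers. They form 2 classes. The S-phase class has 16 genes of the G1/S switch, origin licensing and DNA replication. The mitotic class has 27 genes of the G2/M transition, the spindle, the kinetochore and cell division. All 43 passed the filter on low counts in every fit. No threshold on a measured value divides members from non-members, but the list was drawn up with earlier results of these data known.

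The study asked what loss of Xist, the noncoding RNA that coats and silences the inactive X chromosome, does in XEN cells and in EpiSC, and added XEN cells exposed to a DNA demethylating drug. XEN cells are extra-embryonic endoderm stem cells, the cultured counterpart of the primitive endoderm, and EpiSC are epiblast stem cells, the cultured counterpart of the post-implantation epiblast; both were female. The 9 XEN libraries comprised wild-type cells (2 libraries), cells with a deletion of the paternal Xist allele (3), wild-type cells treated with 20 uM 5-aza-2'-deoxycytidine (2) and cells with the paternal deletion given the same drug at 20 uM (2). The 4 EpiSC libraries comprised wild-type cells (2) and cells with a heterozygous Xist deletion (2). The XEN cells were grown in DMEM with serum, and the EpiSC on matrigel with FGF2 and Activin. Cells with either deletion are called dXist here, and drug-treated cells Aza. The labels give no duration of treatment, do not say whether the libraries of a group came from separate cultures or clones, and name no day or batch, so a p-value here speaks only to library-to-library spread within a group, which may be technical.

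Genes of the 2 classes are transcribed in successive waves. E2F factors drive the genes of the G1/S switch and of replication, and the MuvB complex, with B-MYB (Mybl2) and FOXM1, drives the later G2/M wave; with the pocket proteins in place of these activators, the same complex represses both waves in resting cells. Many G2/M promoters hold a cell cycle genes homology region (CHR), which MuvB binds, and CCAAT boxes, which NF-Y binds. 5-aza-2'-deoxycytidine is incorporated into replicating DNA and traps DNA methyltransferases there.

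Promoter letters of 34 of the 43 genes were found in the RefSeq promoter windows (GRCm38.p6), each covering 250 bases before to 50 bases after a start site. Ccne2, Mcm4, Gins1, Gins2, Ccna2, Aurkb, Incenp, Kif20a and Tpx2 had no entry. The sequences shown were picked for motif content, to set mitotic beside S-phase promoters: Top2a (chr11:99024190-99024359, minus strand), Kif11 (chr19:37376212-37376381, plus strand), Mki67 (chr7:135716380-135716549, minus strand), Cdk1 (chr10:69352913-69353082, minus strand) and Cdc20 (chr4:118437344-118437513, minus strand) are mitotic, and Mcm5 (chr8:75109339-75109508, plus strand) and Mcm6 (chr1:128359706-128359875, minus strand) are S-phase genes. Each run has 170 bases, is written 5′ to 3′ on the gene's strand and ends at the base before the start site. Capitals mark the motif letters searched on both strands: TTTGAA for CHR, CCAAT for the CCAAT box, and TTCCCGC as well as TTGGCGC and also TTCGCGC for E2F. The E2F words can overlap each other, as they do in Mcm5 and Mcm6.
Top2a: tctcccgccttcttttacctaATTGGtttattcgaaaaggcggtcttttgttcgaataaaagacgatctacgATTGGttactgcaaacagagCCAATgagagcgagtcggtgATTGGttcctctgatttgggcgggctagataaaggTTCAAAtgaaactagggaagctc
Kif11: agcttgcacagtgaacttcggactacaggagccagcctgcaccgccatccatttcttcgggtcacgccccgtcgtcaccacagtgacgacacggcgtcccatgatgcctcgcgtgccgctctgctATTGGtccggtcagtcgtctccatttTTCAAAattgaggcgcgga
Mki67: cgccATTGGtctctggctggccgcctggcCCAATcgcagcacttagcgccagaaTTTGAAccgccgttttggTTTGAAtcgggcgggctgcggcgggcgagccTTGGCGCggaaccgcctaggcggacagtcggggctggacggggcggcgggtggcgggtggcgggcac
Cdk1: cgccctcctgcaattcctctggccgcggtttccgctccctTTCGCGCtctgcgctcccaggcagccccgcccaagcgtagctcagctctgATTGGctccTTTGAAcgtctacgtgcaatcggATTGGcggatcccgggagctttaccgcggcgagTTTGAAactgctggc
Cdc20: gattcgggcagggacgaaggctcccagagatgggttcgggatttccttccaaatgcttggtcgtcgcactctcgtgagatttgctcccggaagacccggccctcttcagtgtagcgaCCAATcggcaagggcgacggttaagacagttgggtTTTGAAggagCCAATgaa
Mcm5: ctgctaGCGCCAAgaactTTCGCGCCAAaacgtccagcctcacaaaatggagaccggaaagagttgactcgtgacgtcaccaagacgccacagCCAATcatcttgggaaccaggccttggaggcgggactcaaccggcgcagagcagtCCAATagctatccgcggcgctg
Mcm6: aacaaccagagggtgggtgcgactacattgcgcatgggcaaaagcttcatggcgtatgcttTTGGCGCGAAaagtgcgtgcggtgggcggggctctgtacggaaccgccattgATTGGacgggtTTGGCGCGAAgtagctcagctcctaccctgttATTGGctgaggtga

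The CHR letters were in the window of 16 of 22 mitotic genes (73.9% of 23 windows) and of 2 of 12 S-phase genes (15.4% of 13 windows), Mcm2 and Cdc45, against 17.9% of all 32851 windows. CCAAT letters were in 19 of 22 mitotic and 8 of 12 S-phase genes, against 37.4% of all windows. The E2F letters ran the other way, with 6 of 12 S-phase genes (53.8% of windows) and 3 of 22 mitotic genes (13%), against 8.07% of all windows. CHR and CCAAT letters stood together in 73.9% of mitotic windows and in 6.95% of all windows. The matches are letters in a window, not measured binding.

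**Figure D1:**
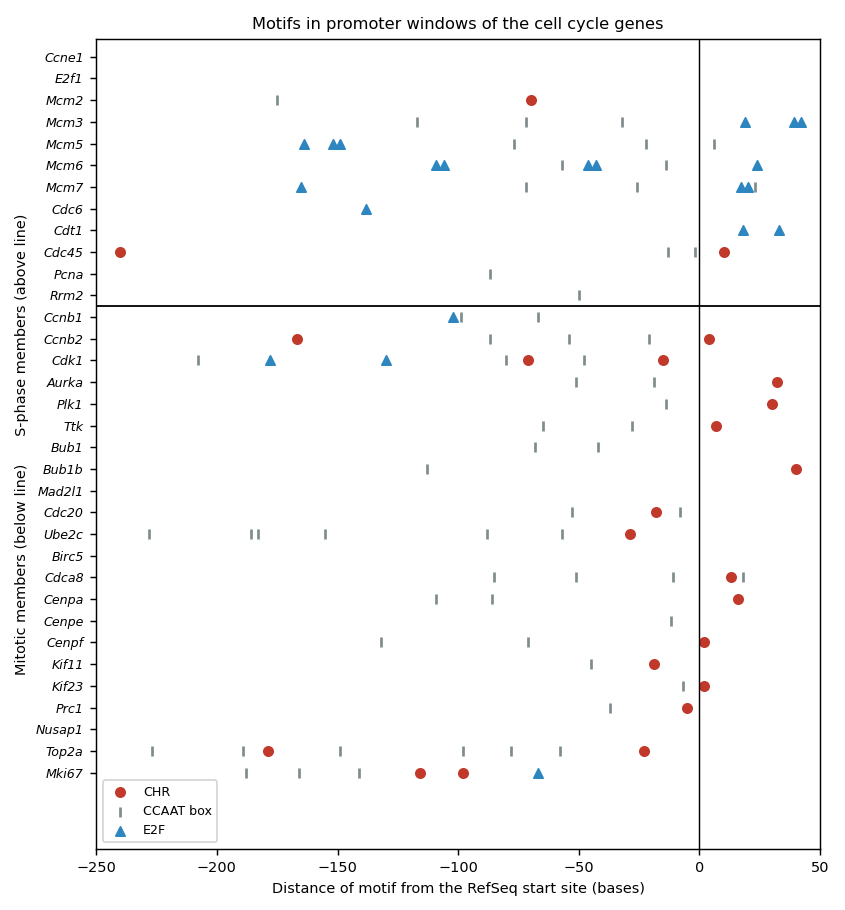
Position of the CHR, CCAAT and E2F letters relative to the start site (x axis, bases) in the first RefSeq window of each of the 34 members with an entry (y axis, mitotic and S-phase members apart). CHR matches sit mostly among mitotic genes and E2F matches mostly among S-phase genes.

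Total counts ran from 5848454 to 35247432 per library. Non-polyadenylated RNA (mitochondrial rRNA and Rn7sk) took 10.4% to 13.5% of counts in both Aza wild-type XEN libraries and in the second library of each EpiSC group, called total-like here, and 0.0152% to 0.279% in the other 9, called polyA-like. Xist was at 1550 and 1587 CPM (counts scaled to a library of 1000000, after TMM adjustment for composition) in wild-type XEN, 1.16 to 4.79 in dXist XEN, 206 and 815 in EpiSC of wild-type genotype, and 0.276 and 0.435 in EpiSC with the deletion. In Aza-treated dXist XEN it was at 14.6 in the first library and 242 in the second, so the library labelled treated dXist XEN 2 stands apart from the other dXist libraries in Xist, and results on that group are given with and without it. Of the 9 XEN markers none was at 0 in any XEN library; their summed level was 17273 CPM in treated dXist XEN 1 and 35300 to 61112 in the other XEN libraries, against 156 to 279 in EpiSC. Of the 9 EpiSC markers none was at 0 in EpiSC, where the sum was 867 to 1243 CPM, against 29.6 to 208 in XEN.

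Per kilobase of exon, Incenp had the highest mean level among the members in wild-type XEN (117 CPM per kb), followed by Mcm4 (94.1), Mcm3 (87.9) and Cdc20 (79.4). Ccne2 (4.37 CPM per kb), Gins1 (9.24) and Ttk (9.70) were lowest. In wild-type EpiSC the highest levels were those of Top2a (130 CPM per kb), the topoisomerase that untangles sister chromatids, and Rrm2 (108), the small subunit of ribonucleotide reductase.

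The first question was what loss of Xist does to the members in untreated XEN. For 21 of 27 mitotic genes all 3 dXist libraries lay below both wild-type libraries, as they did for 14.8% of all genes tested, while 14 of 16 S-phase genes overlapped between the groups. No single member passed the test across all genes. Summed over the 27 mitotic genes, the level was 5099 and 5067 CPM in wild type against 2024, 2352 and 2483 CPM in dXist, with no overlap. Summed over the 16 S-phase genes, it was 1889 and 3077 CPM in wild type and 2143, 2890 and 1876 CPM in dXist, with overlap. The mitotic sum was 2.7 and 1.65 times the S-phase sum in wild type and 0.945, 0.814 and 1.32 times in dXist. Relative to the wild-type mean, the median mitotic gene was at -1.19, -1.33 and -1.01 in the 3 dXist libraries. In bulk RNA, a smaller share of cells in a phase and less RNA per cell cannot be told apart.

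**Figure D2:**
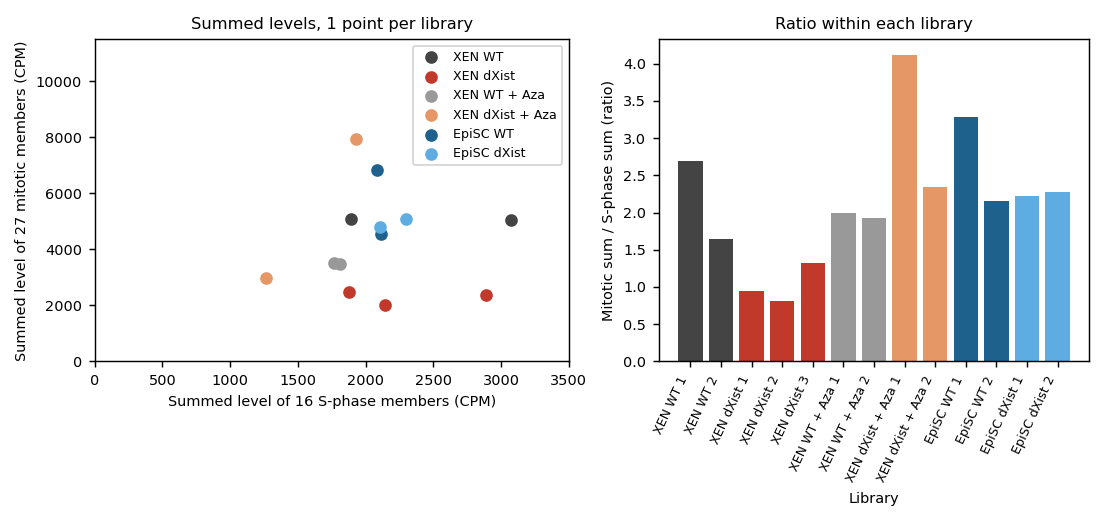
Left, summed CPM of the 16 S-phase members (x axis) against that of the 27 mitotic members (y axis), 1 point per library; right, the ratio of the mitotic to the S-phase sum for each library (bars from 0). The 3 dXist XEN libraries have the lowest ratios, 0.814 to 1.32, and treated dXist XEN 1 has the highest, 4.12.

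By the fitted changes, 26 of 27 mitotic genes were negative in dXist XEN, with a median log2 change of -1.16 (range -2.07 to 0.01), beside a median of 0.00 over the 18393 genes tested. The signs were the same with DESeq2's size factors and in DESeq2. The 6 mitotic genes whose groups overlapped were Ccnb1, Bub1, Mad2l1, Cdc20, Cdca8 and Nusap1. Of the S-phase genes, 11 of 16 were negative, with a median of -0.24 (range -0.80 to 0.79), and 1 stood apart on each side, Gins1 lower and Pcna higher (13.6% of all genes stood apart on the higher side). By edgeR's quasi-likelihood test with Benjamini-Hochberg adjustment, 0 of 43 members passed an adjusted p of 0.05, where 0.0217% of genes passed as lower and 0% as higher. Xist itself, at a log2 change of -9.15, had an adjusted p of 0.0602. At an unadjusted p under 0.05, 20 mitotic and 0 S-phase genes were lower, against 6.01% of all genes, and 0 members were higher, against 4.72%. DESeq2 called 6 mitotic genes lower (Ccnb2, Aurkb, Incenp, Cenpa, Cenpf and Kif20a), and 0 members higher, where it called 1.6% of all genes lower and 0.989% higher.

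Genes of the centromere and kinetochore stood lowest, with a median of -1.80 over 3 genes. Cenpf (chromosome 1, 189640606 to 189688086, GRCm38), a kinetochore protein that accumulates in G2, was at 309 and 288 CPM in wild type and 47.5, 57.2 and 108 CPM in dXist (log2 change -2.07 ± 0.58 SE, edgeR adjusted p = 0.327). Cenpe, the kinesin that moves chromosomes to the metaphase plate, was at 208 and 211 CPM against 42.1, 50.9 and 87.3 (-1.80 ± 0.60, adjusted p = 0.391). Cenpa (chromosome 5, 30666777 to 30674830), the histone H3 variant that marks centromeres, was at 191 and 141 CPM against 37.4, 34.1 and 81.7 (-1.69 ± 0.41, adjusted p = 0.281, with 0.00674 to 0.768 over the alternatives). For all 3 genes the highest dXist library was the third, and it stayed under the lowest wild-type library.

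The chromosomal passenger complex, which corrects faulty spindle attachments, had a median of -1.24 over 4 genes. Incenp (chromosome 19, 9872296 to 9899551), its scaffold, was at 566 and 444 CPM in wild type and 103, 110 and 210 CPM in dXist (-1.84 ± 0.46, edgeR adjusted p = 0.296). Aurkb (chromosome 11, 69045647 to 69051664), its kinase, was at 151 and 85.1 CPM against 31.8, 35.0 and 51.9 (-1.57 ± 0.37, adjusted p = 0.279, with 0.0203 to 0.768 over the alternatives). The borealin gene Cdca8 did not separate the groups, at 107 and 131 CPM against 110, 109 and 55.1.

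Among the cyclin and CDK1 genes, Ccnb2 (chromosome 9, 70407692 to 70421547), a B-type cyclin, had the smallest p of all members: 80.1 and 75.5 CPM against 25.8, 23.2 and 37.3 (-1.44 ± 0.32, edgeR adjusted p = 0.248, with 0.0288 to 0.76 over the alternatives). The other B-type cyclin, Ccnb1, was at 204 and 285 CPM against 224, 405 and 114, with a change of 0.01 ± 0.48. The 2 B cyclins thus stood on different sides of the group's pattern; the difference between them was not tested. Cdk1, their kinase partner, was at 128 and 128 CPM against 82.1, 77.3 and 76.9 (-0.71 ± 0.29).

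Chromosome and spindle genes had similar values. Mki67, which coats mitotic chromosomes, was at 487 and 365 CPM against 61.7, 89.0 and 215 (-1.79 ± 0.64, edgeR adjusted p = 0.403), and Top2a was at 583 and 550 CPM against 125, 170 and 281. All 6 spindle and midzone genes were negative (median -1.22), among them Kif23, a motor of the midzone, at 148 and 121 CPM against 30.9, 31.4 and 64.8. The polo-like kinase Plk1 was at 91.3 and 132 CPM against 48.0, 37.1 and 65.6 (-1.16 ± 0.33). Checkpoint genes were mixed. Bub1b, a part of the mitotic checkpoint complex, was at 134 and 139 CPM against 62.2, 70.5 and 65.5, without overlap, whereas its partner Mad2l1 was at 104 and 105 CPM against 111, 119 and 60.2.

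The S-phase genes with the smallest p did not share a direction. Ccne1, a cyclin of the G1/S switch, was at 17.1 and 39.6 CPM in wild type and 20.8, 11.6 and 17.0 CPM in dXist (-0.80 ± 0.42, edgeR adjusted p = 0.53), with overlap. Its paralogue Ccne2 was at 18.5 and 12.1 CPM against 23.8, 38.8 and 16.5 (0.79 ± 0.50, adjusted p = 0.597), also with overlap. Pcna, the sliding clamp of the replication fork, was at 89.5 and 106 CPM against 148, 214 and 120 (0.71 ± 0.39, adjusted p = 0.547), higher in every dXist library. The 6 MCM helicase genes ranged from -0.44 to 0.08 around a median of -0.17; Mcm2 was at 164 and 306 CPM against 232, 344 and 174. The wild-type libraries themselves differed in this class: without wild-type XEN 2 the S-phase median was 0.32, and without wild-type XEN 1 it was -0.40, while the mitotic median stayed between -1.01 and -1.25 whichever library was left out.

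**Figure D3:**
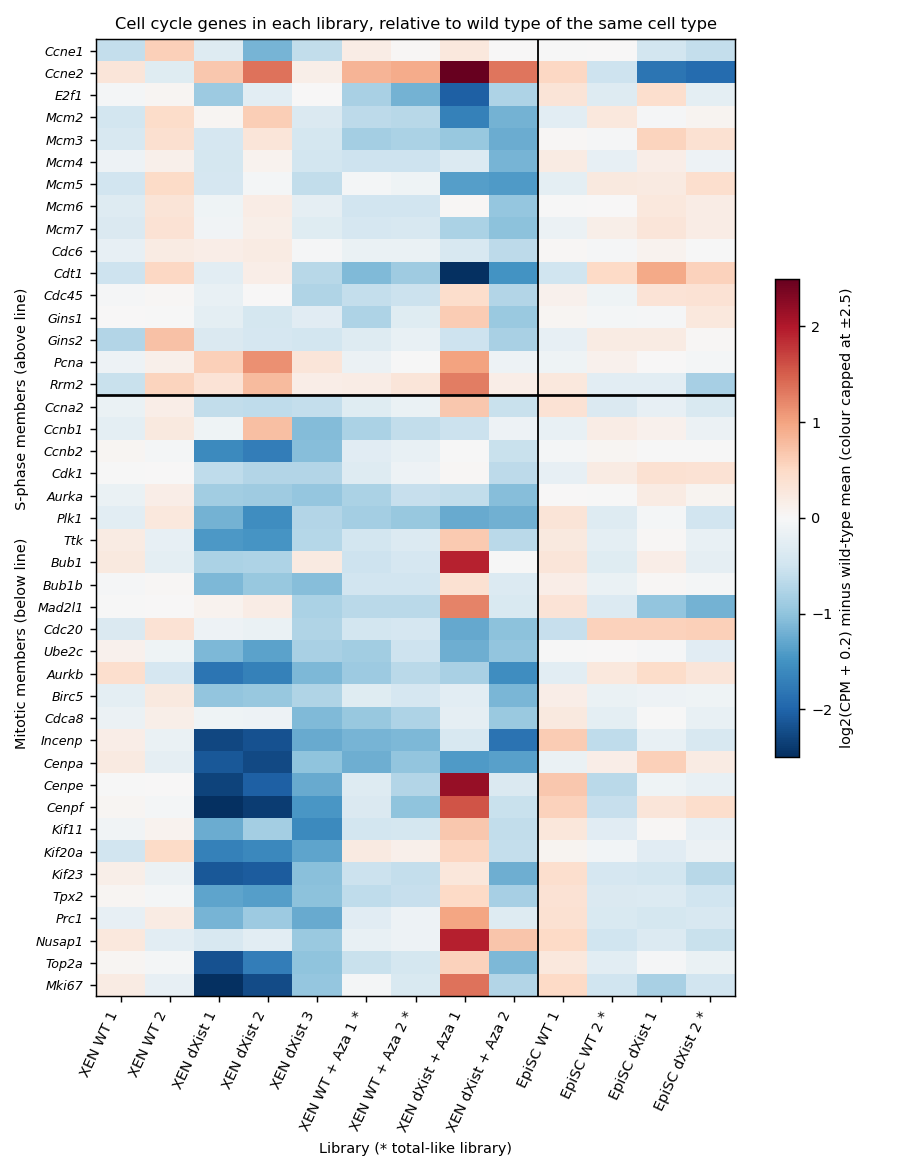
Levels of the 43 members (rows, by class and role) in the 13 libraries (columns; an asterisk marks total-like libraries), as log2(CPM + 0.2) minus the mean of the wild-type libraries of the same cell type; colours stop at 2.5 on either side. The 3 dXist XEN columns are low over most mitotic rows, and treated dXist XEN 1 is high over many of them.

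Other genes of the same pathways, from lists that do not include the members, gave these counts in dXist XEN, with 0 called by edgeR in each. All 24 spindle, condensin and cytokinesis genes were negative (median -1.12), 22 of them lower without overlap, beside 14.8% of all genes, and 13 at an unadjusted p under 0.05, beside 6.01%. Of 22 kinetochore and cohesin genes 19 were negative (median -0.68), and of 28 replication and nucleotide genes 19 (median -0.35). The securin gene Pttg1 was at -1.62 ± 0.36, and the midzone gene Racgap1 at -1.33 ± 0.30. Of 14 E2F, MYB and FOXM1 regulators, 6 were negative (median 0.15). Mybl2, the B-MYB gene, was at 338 and 409 CPM in wild type and 89.6, 125 and 155 CPM in dXist (-1.60 ± 0.34, edgeR adjusted p = 0.239), without overlap, and Foxm1 was at 94.6 and 86.7 against 52.6, 60.0 and 63.8 CPM. Of 7 CDK inhibitor genes 4 were negative (median -0.39), with 3 lower and 1 higher without overlap. Among them Cdkn1a, the p21 inhibitor of cyclin-dependent kinases, chosen after its values were seen, was at 169 and 67.8 CPM in wild type, and at 657, 717 and 69.1 CPM across the dXist libraries.

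Mitotic genes with and without CHR letters could be compared in the 22 with a promoter window. In dXist XEN all 16 genes with the letters were negative (median -1.17), and 5 of 6 without them were negative (median -0.46). The other comparisons within XEN, described next, did not repeat this order: the medians with and without the letters were -0.41 and -0.41 for the drug in wild type, 0.98 and 1.02 for the drug in dXist cells, and 1.25 and 1.52 for the drug by genotype difference. For the deletion in EpiSC they were -0.07 and -0.18, for its difference between EpiSC and XEN 1.08 and 0.21, and between the wild-type cells -0.10 and 0.77. These medians are given as a description, with no test.

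The next question was what the drug does in dXist XEN, where all 5 libraries compared were polyA-like. The untreated dXist libraries are the same ones as in the comparison above, so a low level there enters both comparisons. No member passed the test, and the 2 treated libraries differed from each other. The mitotic sum was 2024, 2352 and 2483 CPM without drug and 7957 and 2963 CPM with it. The S-phase sum was 2143, 2890 and 1876 CPM without drug and 1931 and 1264 CPM with it. The mitotic sum of both treated libraries thus lay above all untreated ones, while the S-phase sum of treated library 1 lay within the untreated range and that of library 2 below it. Relative to the untreated dXist mean, the median mitotic gene was at 1.45 in treated library 1 and 0.43 in treated library 2, and the median S-phase gene at -0.09 and -0.79, so that the mitotic minus S-phase gap was 1.53 and 1.23. Of the 27 mitotic genes 4 were negative in treated library 1 and 7 in treated library 2, and of the 16 S-phase genes 9 and 14.

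By the fit, 21 of 27 mitotic genes were positive (median log2 change 0.95, range -0.97 to 3.03) and 11 of 16 S-phase genes negative (median -0.55, range -1.87 to 1.28), beside -0.02 over all genes. By edgeR 0 of 43 members passed (smallest adjusted p = 0.0641), where 0.0707% of genes passed as higher and 0.00544% as lower. At an unadjusted p under 0.05, 14 mitotic genes were higher and 1 was lower, and 6 S-phase genes were lower and 1 was higher, against 14.4% of all genes higher and 12.4% lower. Without overlap, 12 mitotic genes were higher (23.9% of all genes) and 7 S-phase genes lower (18.4% of all genes). DESeq2, in which the median of all genes was 0.24, called 9 mitotic genes higher (8.24% of genes) and 2 S-phase genes lower (5.94%). Without the library labelled treated dXist XEN 2, edgeR called 17 members higher and 3 lower, where it called 10.1% of all genes higher and 13.7% lower, the lone treated library being assumed to vary like the other groups. Without treated dXist XEN 1 it called 0, the mitotic median was 0.22 and the S-phase median -0.95. Treated dXist XEN 1 is also the library with the lowest XEN marker sum, and the part of this in the result was not tested.

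The kinetochore genes again had the largest changes. Cenpe was at 42.1, 50.9 and 87.3 CPM untreated and 951 and 164 CPM treated (3.03 ± 0.62, edgeR adjusted p = 0.0641, with 1.63e-09 to 0.231 over the alternatives). Cenpf was at 47.5, 57.2 and 108 CPM untreated and 891 and 204 CPM treated (2.76 ± 0.58, adjusted p = 0.0641, with 5.24e-08 to 0.246). Nusap1, which bundles spindle microtubules, was at 43.4, 47.3 and 29.9 CPM against 219 and 92.2 (1.79 ± 0.39, adjusted p = 0.068). Both treated libraries lay above all untreated ones for these genes, and treated library 1 was far above treated library 2. Cenpa, the third centromere gene, was at 37.4, 34.1 and 81.7 CPM against 61.0 and 63.8, with overlap. All 6 spindle and midzone genes were positive (median 1.31), while Aurka, Plk1, Ube2c and Cdca8 had changes from -0.31 to -0.07, and Cdc20, the activator of the anaphase-promoting complex, was at 131, 129 and 85.5 CPM against 59.1 and 70.7 (-0.97 ± 0.35).

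On the S-phase side all 6 MCM genes were negative (median -1.04). Mcm2 (chromosome 6, 88883474 to 88898780), a helicase subunit, was at 232, 344 and 174 CPM untreated and 69.7 and 99.1 CPM treated (-1.71 ± 0.43, edgeR adjusted p = 0.0754, with 0.00296 to 0.266 over the alternatives). Cdt1 (chromosome 8, 122568015 to 122573554), which loads the helicase onto origins, was at 180, 244 and 134 CPM against 35.0 and 76.5 (-1.87 ± 0.49, adjusted p = 0.0784). Mcm5 was at 220, 285 and 195 CPM against 114 and 110 (-1.21 ± 0.37, adjusted p = 0.0967). Treated values lay below all untreated ones for these 3 genes. Ccne2 ran the other way, at 23.8, 38.8 and 16.5 CPM against 106 and 38.0 (1.28 ± 0.48), with overlap.

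**Figure D4:**
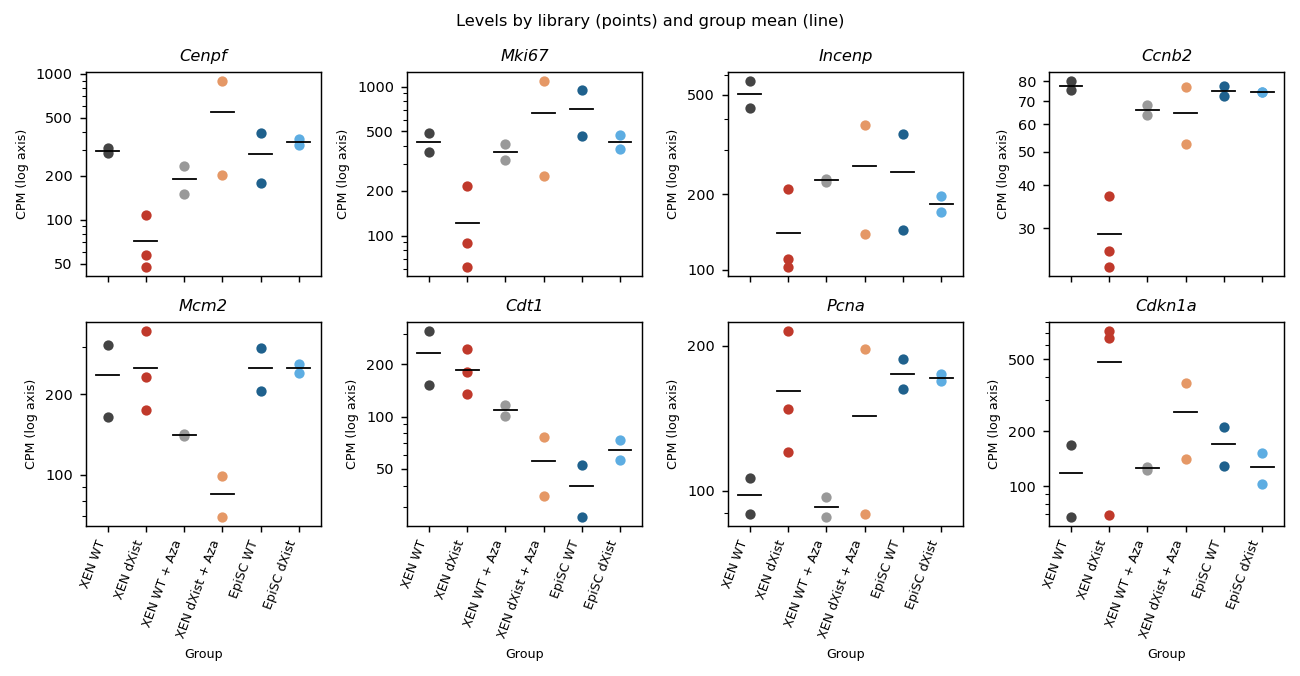
CPM (log axis) of 7 members and of Cdkn1a in each library (points) and the mean of each group (line), by group. Cenpf, Mki67, Incenp and Ccnb2 are lower in dXist XEN than in wild-type XEN without overlap, and Mcm2 and Cdt1 are lowest among XEN groups in treated dXist cells.

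The fitted change with the drug in dXist XEN moved with the base composition and the length of the transcripts. Over 9214 genes of at least 10 CPM, the Spearman correlation of the change in dXist XEN with the GC content of the longest transcript was -0.577; it was -0.608 over the 27 mitotic genes and -0.553 over the 16 S-phase genes. With transcript length the correlation was 0.349 over all these genes, 0.648 over the mitotic and -0.412 over the S-phase genes. These genes share the same 5 libraries and are not independent replicates, so the values are a description. Among genes with large changes, Cenpe (42.9% GC), Cenpf (43.3%) and Mki67 (46.6%) lie at the low-GC side, and Cdc20 (55.6%), E2f1 (58.3%) and Cdt1 (57.8%) at the high-GC side. Not all members followed this order. Ccnb1 (44.2%) and Mcm4 (45.5%) had changes of -0.49 and -0.61, and Incenp (54.7%) had a change of 0.70. The median GC content was 47.4% for mitotic, 50.5% for S-phase and 49.3% for all genes. The transcripts of Cenpf (11130 bases), Mki67 (10061) and Cenpe (7910) are also long, beside a median of 3449 bases over the mitotic genes. After the median change of genes of like GC content (20 bins) was subtracted, 24 of 27 mitotic genes were positive with a median of 0.78, and 11 of 16 S-phase genes negative with a median of -0.44. The subtracted changes were -1.305 for Mcm2, -0.975 for Cdt1 and -0.806 for Mcm5. They were 2.636 for Cenpe, 2.372 for Cenpf and 1.368 for Nusap1. For dXist against wild-type XEN the correlation with GC was -0.218 over all genes, and after the same subtraction 27 of 27 mitotic genes were negative with a median of -1.24. Over all genes it was -0.124 for the drug in wild-type XEN and -0.516 for the drug by genotype difference. Comparisons without the drug also had such correlations: 0.387 for the deletion in EpiSC, -0.391 between the wild-type cells and 0.379 for dXist by cell type. The part of transcript composition in these changes was not tested beyond this subtraction, and that of transcript length was not tested.

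**Figure D5:**
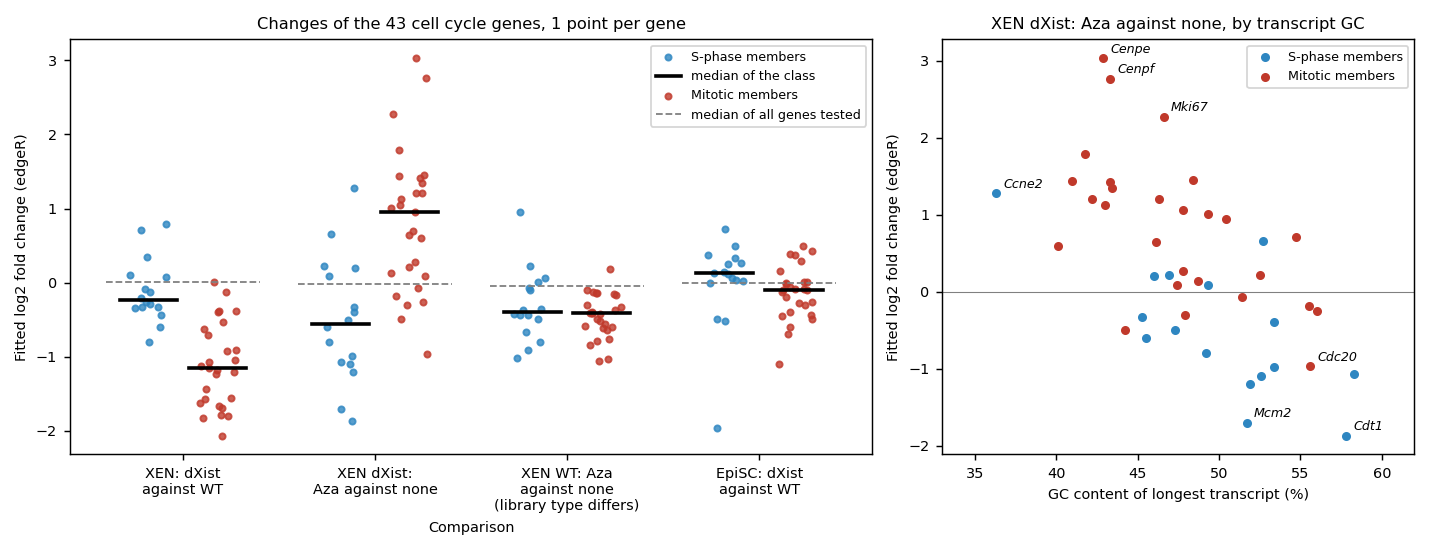
Left, fitted log2 fold change of each member (1 point per gene) in 4 comparisons, with the class median (thick line) and the median of all genes tested (dashed). Right, the change with Aza in dXist XEN against the GC content of the longest transcript. Mitotic members lie low in dXist XEN (median -1.16) and high with Aza in dXist XEN (median 0.95), where the highest changes are at the low-GC side.

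In wild-type XEN, drug and library type cannot be told apart, since both treated libraries were total-like and both untreated ones polyA-like. Here the 2 class medians were close: 26 of 27 mitotic genes were negative (median -0.41) and 12 of 16 S-phase genes (median -0.40), beside -0.04 over all genes and -0.21 over genes of at least 10 CPM. With library type held as a covariate in 1 fit of the 13 libraries, 20 of 27 mitotic genes were negative (median -0.23) and the S-phase median was -0.47, and after subtraction of GC-bin medians the class medians were -0.25 and -0.18. The library-type term of that fit came from EpiSC alone and is assumed to hold in XEN, where no group held both types. The mitotic sum was 5099 and 5067 CPM untreated and 3528 and 3482 CPM treated, and the S-phase sum 1889 and 3077 CPM against 1768 and 1810 CPM. By edgeR 0 of 43 members passed, where 0.549% of genes passed as higher and 0.0326% as lower, and DESeq2 called 0, where it called 3.2% of genes higher and 0.525% lower. With no adjustment, at p under 0.05, 2 mitotic genes were lower (3.72% of all genes) and 0 members higher (8.67%). Without overlap, 22 mitotic and 9 S-phase genes were lower, where 31.7% of all genes were, and 1 member, Ccne2, was higher, where 28.1% were. As a measure of library type, the total-like minus polyA-like difference in EpiSC of 1 genotype had a mitotic median of -0.54 in wild type and -0.16 in dXist, and an S-phase median of -0.02 and -0.11.

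The members with the smallest p were Plk1, at 91.3 and 132 CPM untreated and 60.9 and 56.6 CPM treated (-0.85 ± 0.37, edgeR adjusted p = 0.397), Cenpa, at 191 and 141 against 70.6 and 82.9 CPM (-1.03 ± 0.46, adjusted p = 0.401), and Incenp, at 566 and 444 against 225 and 231 CPM (-1.06 ± 0.52, adjusted p = 0.449). In the S-phase class they were Cdt1, at 152 and 311 against 100 and 116 CPM, Mcm3, at 240 and 420 against 176 and 183 CPM, and E2f1, the activator of the G1/S wave, at 31.4 and 34.0 against 18.4 and 14.3 CPM. Treated values lay below untreated ones for all 6.

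The difference between the drug's change in dXist and in wild-type XEN was positive for 26 of 27 mitotic genes (median 1.27) and negative for 12 of 16 S-phase genes (median -0.16), beside -0.11 over all genes; with DESeq2's size factors only 9 of 16 S-phase genes were negative. By edgeR 0 of 43 members passed, where 0.00544% of genes passed as higher and 0.239% as lower. At an unadjusted p under 0.05, 14 mitotic genes were higher (4.32% of all genes) and 0 members lower (3.69%). Cenpf had a difference of 3.32 ± 0.87 (edgeR adjusted p = 0.439) and Cenpe 3.45 ± 0.92 (adjusted p = 0.456); DESeq2 called both and no other member, where it called 0.477% of genes higher and 0.883% lower. Without the library labelled treated dXist XEN 2, edgeR called 10 mitotic genes higher and 0 members lower, where it called 2.93% of all genes higher and 5.16% lower. The S-phase genes with the smallest p were Mcm5 (-1.13 ± 0.54), Mcm2 (-1.04 ± 0.61) and Cdc6 (-0.70 ± 0.43). Library type differs between the 2 arms of this difference, and its part was not tested beyond 1 fit of the 13 libraries together that held the type of library as a covariate, in which 0 members and 0% of all genes passed. In that fit 27 of 27 mitotic genes were positive with a median of 1.38, beside 0.21 over all genes. Its library-type term came from the EpiSC libraries alone, since no XEN group held both types. The fit therefore cannot separate drug from library type in wild-type XEN.

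In EpiSC, the heterozygous deletion was compared with wild type, and the medians of both classes were close to that of all genes. The mitotic sum was 6849 and 4565 CPM in wild type and 5094 and 4794 CPM in dXist, and the S-phase sum 2083 and 2114 CPM against 2298 and 2105 CPM. The mitotic median was -0.10 (19 of 27 negative) and the S-phase median 0.13 (12 of 16 positive), beside 0.00 over 17132 genes. After subtraction of GC-bin medians the mitotic median was 0.02 (11 of 27 negative) and the S-phase median 0.18 (10 of 16 positive). By edgeR 0 of 43 members passed, as did 0% of all genes in either direction, and DESeq2 called 1 member lower and 0 higher, where it called 2.2% and 0.651% of genes. Each EpiSC group held a polyA-like and a total-like library, so the spread in these fits includes library type. With the replicate number, here also the library type, as a block, edgeR called 2 members lower and 0 higher. That fit called 1119 of 17132 genes lower and 841 higher. At an unadjusted p under 0.05, 2 members were lower (6.32% of all genes) and 0 higher (3.85%). Without overlap, 10 members were higher (20.5% of all genes) and 7 lower (22.3%).

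Ccne2 (chromosome 4, 11191351 to 11204779), a cyclin E gene, was at 43.5 and 21.4 CPM with wild-type Xist and 8.45 and 7.92 CPM with the deletion (-1.96 ± 0.41, edgeR adjusted p = 0.243, with 1.21e-06 to 0.856 over the alternatives), and was the gene DESeq2 called (adjusted p = 0.00196). Within the polyA-like pair its difference was -2.34, and within the total-like pair -1.41. Mad2l1, the checkpoint gene, was at 283 and 173 CPM against 111 and 97.5 (-1.10 ± 0.35, edgeR adjusted p = 0.398), with -1.34 and -0.83 within the pairs. After subtraction of GC-bin medians the changes were -1.66 for Ccne2 (36.3% GC) and -0.75 for Mad2l1 (40.1% GC). With the replicate number as a block, which here is also the library type, edgeR called both (adjusted p = 1.21e-06 for Ccne2 and 0.014 for Mad2l1), where it called 6.53% of all genes lower.

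Other members depended on the library type. Mki67 was at 941 and 466 CPM in wild type and 378 and 476 CPM in dXist, a difference of -1.31 in the polyA-like pair and 0.03 in the total-like pair. Kif23 was at 131 and 74.1 CPM against 72.0 and 61.2, with -0.86 and -0.28. The mitotic median was -0.27 in the polyA-like pair (20 of 27 negative) and 0.03 in the total-like pair (11 negative). All 6 MCM genes were positive (median 0.26), with Mcm3 at 208 and 198 CPM against 299 and 263 (0.49 ± 0.28), and Ccne1 was at 70.7 and 71.6 CPM against 51.9 and 47.3 (-0.50 ± 0.24). Markers of fibroblasts, which EpiSC are often cultured with, moved too: their sum was 794 and 675 CPM in wild type against 227 and 164 CPM in dXist, and 7 of 8 were lower without overlap, beside 22.3% of all genes. Their part in these values was not tested.

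The change with loss of Xist was set against itself between the cell types. The EpiSC minus XEN difference was positive for 25 of 27 mitotic genes (median 1.08) and 11 of 16 S-phase genes (median 0.36), beside -0.01 over all genes. By edgeR 0 of 43 passed, where 0.00507% of genes passed in each direction. At an unadjusted p under 0.05, 13 mitotic genes were higher and 1 S-phase gene lower (5.17% of all genes in either direction), and DESeq2 called Cenpf higher (1.18% of genes) and Ccne2 lower (1.26%). Values were -2.74 ± 0.69 for Ccne2 (edgeR adjusted p = 0.279), 1.97 ± 0.51 for Aurkb (0.287), 2.37 ± 0.64 for Cenpf (0.308) and 1.45 ± 0.39 for Ccnb2 (0.308). In the S-phase class Cdt1 was at 1.04 ± 0.63 and Cdc45 at 0.66 ± 0.41.

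Between the wild-type cells themselves, 3 S-phase genes passed the test and no mitotic gene did, where 16.8% of the 19733 genes tested passed as higher in EpiSC and 14.1% as lower. Cdt1 fell: it was at 152 and 311 CPM in XEN and 26.6 and 52.8 CPM in EpiSC (-2.54 ± 0.49, edgeR adjusted p = 0.00517), and it passed in 10 of 10 alternatives. Ccne1 rose, at 17.1 and 39.6 CPM in XEN and 70.7 and 71.6 CPM in EpiSC (1.33 ± 0.43, adjusted p = 0.041), and passed in 6 of 10 alternatives. Cdc45, a part of the active helicase, fell, at 92.0 and 95.3 CPM against 54.3 and 46.5 (-0.90 ± 0.30, adjusted p = 0.0491), but passed in 1 of 10 alternatives. None of the 3 overlapped between cell types. After subtraction of GC-bin medians the changes were -1.65 for Cdt1, 1.86 for Ccne1 and -0.72 for Cdc45. The second wild-type EpiSC library was total-like and both wild-type XEN libraries were polyA-like. In the joint fit that held library type as a covariate, 1 S-phase gene passed. That fit called 2724 of 20852 genes higher in EpiSC and 1875 lower.

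The class medians were -0.08 (S-phase) and -0.05 (mitotic) beside 0.13 over all genes; with DESeq2's size factors they were 0.01 and 0.04 beside 0.22, so their sign depends on the scaling. The mitotic genes with the smallest p were Mad2l1, at 104 and 105 CPM in XEN and 283 and 173 CPM in EpiSC (1.12 ± 0.39, edgeR adjusted p = 0.053), Nusap1, at 68.7 and 47.2 against 165 and 83.4 CPM (1.09 ± 0.39, adjusted p = 0.0585), and Cenpa, at 191 and 141 against 63.3 and 79.2 CPM (-1.22 ± 0.44, adjusted p = 0.0607). DESeq2 called 4 mitotic genes higher in EpiSC, where it called 21.3% of all genes higher and 15.2% lower. Without overlap, 9 members were higher (36.3% of all genes) and 13 lower (30%). Among regulators outside the members, Ccnd1, the D-type cyclin of early G1, rose from 1.04 and 0.255 CPM in XEN to 180 and 146 CPM in EpiSC (7.97 ± 0.77, adjusted p = 0.000185), and its kinase partner Cdk6 rose by 6.74 ± 0.93. Mybl2 fell from 338 and 409 CPM to 36.9 and 40.9 CPM (-3.26 ± 0.35, adjusted p = 0.000276).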

How the data were processed

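RNA of 13 libraries was analysed from the table of raw gene counts that the authors deposited. The submitters' processing notes name FastQC, STAR 2.7.9a, featureCounts 2.0.1 and the builds GRCm38 and mm10; the sources used here give no strand setting, no treatment of multi-mapping reads and no annotation version. Per the labels' protocols, total RNA was extracted with Trizol and libraries were made with NEBNext Ultra or stranded TruSeq kits, without saying which library had which. Without a stated strand setting, reads of a gene and of an antisense neighbour cannot be told apart.

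Of 38377 identifiers, 38240 matched GENCODE vM21 (GRCm38), which gave the symbols. The members and all gene lists were chosen with earlier results of these data known. Counts were fitted with edgeR 4.0.16 in R 4.3.3 (TMM, filterByExpr, robust quasi-likelihood F test, group as the only term, Benjamini-Hochberg adjustment over all genes tested, threshold 0.05). The 9 XEN libraries, the 4 EpiSC libraries and the 9 untreated libraries were fitted apart, for the comparisons within XEN, within EpiSC and between cell types. CPM values are counts divided by the TMM-scaled library size and scaled to 1000000, and per-library differences use log2(CPM + 0.2). A library was called total-like above 5% non-polyadenylated RNA. Values of every library are given for the members called, or with the smallest p, in each class and comparison (up to 3 where fewer were called); further members and genes shown were chosen after their values were seen. Alternatives were DESeq2 1.42.0, its size factors in edgeR, no filter on low counts, the replicate number as a block, only the compared groups, 1 joint fit of the 13 libraries that holds the type of library as a covariate, and each library left out in turn. Subtraction of GC-bin medians was added after seeing the data. As a check of the code only, the fits were run on simulated counts with known changes and the same spread for every gene. This does not measure how reliable the calls are at the spread of the real libraries. Same-numbered XEN libraries did not deviate together (correlations of -0.135 to 0.104), so numbers were not taken as pairs there. In EpiSC the same-numbered libraries of both genotypes correlated at 0.754 and share a library type, but with only 2 pairs and no pairing in the labels the fit without the block was kept.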

Additional observations from a re-analysis of the deposited data

Results flagged for a closer look

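Against untreated libraries of the same genotype, the mitotic median was negative in both treated wild-type libraries and positive in both treated dXist libraries. No member passed the test in either comparison, and 6 of 27, among them Cdc20 (-0.41 in wild type and -0.97 in dXist), were negative in both. After subtraction of GC-bin medians Cdc20 was at -0.13 in wild type and -0.14 in dXist. In dXist, 3 of 27 mitotic genes were then negative. Set against untreated wild-type XEN instead, the median mitotic gene was at 0.38 in treated dXist XEN 1 (11 of 27 below). In treated dXist XEN 2 it was at -0.68 (26 of 27 below). Relative to the untreated libraries of the same genotype, the median mitotic gene averaged -0.4753 (log2) over the 2 treated wild-type libraries and 0.94 over the 2 treated dXist libraries. The mitotic minus S-phase median averaged -0.0788 in treated wild type and 1.381 in treated dXist. The difference of these summaries was not tested, and the treated wild-type libraries are total-like while the others are polyA-like.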

How the results depend on the processing

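The counts of called members depended on the test. For dXist against wild-type XEN edgeR called 0, DESeq2 6, the fit with no filter on low counts 9, and leaving out 1 library 0 to 4 (4 without dXist XEN 3). For Aza in wild-type XEN the count was 0, with 1 when only the compared groups were fitted. For Aza in dXist XEN it was 0, with 11 in DESeq2, 11 with no filter, 9 in the joint fit of 13 libraries, and 0 to 20 with 1 library left out (20 without treated dXist XEN 2, 1 without dXist XEN 3). For the drug by genotype difference it was 0, with 2 in DESeq2, 3 with no filter and 0 to 10 leaving out 1 library. For EpiSC dXist it was 0, with 1 in DESeq2, 1 with no filter and 0 to 1 leaving out 1 library (1 without wild-type EpiSC 2). For EpiSC against XEN wild type it was 3, with 7 in DESeq2, 6 with no filter, 1 with all 13 libraries and 1 to 3 leaving out 1 library (1 without wild-type EpiSC 1). For dXist by cell type it was 0, with 2 in DESeq2, 4 with no filter and 0 to 5 leaving out 1 library (5 without dXist XEN 3). The all-gene counts also differed between fits. With Aza in dXist XEN they went from 13 higher and 1 lower to 1564 and 1127 in DESeq2. They were 1377 and 1373 of 35682 there with no filter, and 1094 and 299 of 20852 in the joint fit. With no filter they were 303 and 381 for dXist XEN, and 189 and 148 for drug by genotype. They were 146 and 530 of 30248 for EpiSC dXist with no filter. For EpiSC against XEN they were 4145 and 3403 of 34931, and for dXist by cell type 281 and 335. The cause was not tested.

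With the replicate number as a block the counts were 3 (dXist XEN), 2 (EpiSC dXist), 12 (EpiSC against XEN) and 5 (dXist by cell type), and 0 in the other comparisons. Over all genes the block fit called 112 higher and 256 lower of 18393 in dXist XEN. For EpiSC against XEN it called 4306 higher and 3587 lower of 19733, and for dXist by cell type 409 and 334. The EpiSC dXist count over all genes went from 0 to 841 higher and 1119 lower of 17132. The titles of the treated dXist XEN libraries repeat those of untreated dXist XEN 1 and 2, but the labels do not say that they are pairs. Treated minus untreated within these numbers, the mitotic median was 1.57 and 0.55 and the S-phase median -0.03 and -1.005. The mitotic minus S-phase gap was 1.60 and 1.56. No label states a pairing in the other groups, and in EpiSC the same number also marks the same library type.

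The mitotic minus S-phase median ranged, with 1 library left out, from -1.336 to -0.7697 for dXist XEN (-0.9222 with all), -0.4254 to 0.1009 for Aza in wild type (-0.007954), 1.166 to 1.683 for Aza in dXist (1.502), 1.256 to 1.901 for the drug by genotype difference (1.43), -0.4754 to -0.0144 for EpiSC dXist (-0.2236), -0.1465 to 0.4132 for EpiSC against XEN (0.02602) and 0.4742 to 1.054 for dXist by cell type (0.7165). The extremes -1.336, -0.4254, 1.901 and 1.054 came without wild-type XEN 2. Subtraction of GC-bin medians, chosen after seeing the data, gave -1.12, -0.06809, 1.22, 1.476, -0.1582, 0.07504 and 0.7936 in the same order. Of the values of single named members under alternatives, 391 kept their direction and side of the threshold, 70 passed where they had not, 13 no longer passed and none turned. Groups of 2 or 3 libraries limit what could be called.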
